A study of Mus musculus with 6 samples.

Results

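The genes described here are markers of the choroid plexus, the secretory tissue that hangs in the brain ventricles, measured in whole brains of mice with and without the neural cell adhesion molecule NCAM. They were chosen by name, as every probe set whose only gene symbol was Ttr, Enpp2, Kl, Folr1, Igf2, Prlr or Clic6. Of these 7 genes 4 had a probe set (Ttr, Kl, Folr1 and Igf2), with 6 probe sets among the 12422 of the array, which name 8251 genes in all. Enpp2, Prlr and Clic6 were not named for any probe set in the annotation used, and their levels were not analysed here. The arrays came from 6 male C57BL/6J mice, 1 array per animal. The knockout group (n = 3) carried a constitutive deletion of Ncam1 in all tissues, and the wild-type group (n = 3) had the same background without it. Replicate 3 of each genotype was aged 3 months, and the other replicates 2 months. Total brain was dissected after cervical dislocation, and the labels do not say how much of the ventricular lining, meninges, brainstem or pituitary stayed with each brain. The comparison asks whether these transcripts differ between genotypes and, array by array, how evenly choroid plexus was represented in the dissected brains.

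The choroid plexus is a sheet of epithelial cells around a vascular stroma that secretes most of the cerebrospinal fluid and forms the barrier between blood and that fluid. Its epithelium makes transthyretin (Ttr), the carrier of thyroxine and of retinol-binding protein, in very large amounts, and moves folate into the fluid through the folate receptor Folr1. It also expresses klotho (Kl), the co-receptor of the hormone FGF23, and, together with the meninges, the imprinted growth factor Igf2. Enpp2 encodes autotaxin, which makes lysophosphatidic acid, Prlr the prolactin receptor, and Clic6 a chloride intracellular channel protein. The plexus is a small part of the brain and lies inside the ventricles, so its share of a brain sample depends on what is dissected. In a tissue sample such as this, fewer plexus cells and less RNA per cell cannot be told apart.

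RefSeq promoter windows of build GRCm38.p6 were searched for 3 of the 7 genes, Kl, Igf2 and Prlr, with 8 start sites. Promoters of the other genes were not examined here. The 250 bases before each start were searched on both strands for the core sequence bound by OTX factors (TAATCC), the forkhead site (GTAAACA), the GC box (GGGCGG) and the TATA box (TATAAA), and no matches overlapped. Kl, at chr5:150952607-150993817, has 1 start site, and Igf2, at chr7:142650768-142666816, has 4. The windows shown are those of the measured members with 2 matches each, printed 5′ to 3′ on the gene's strand, with the matches in capitals. The Kl window covers chr5:150952357-150952606 on the plus strand, and the Igf2 window chr7:142657497-142657746 on the minus strand.
Kl: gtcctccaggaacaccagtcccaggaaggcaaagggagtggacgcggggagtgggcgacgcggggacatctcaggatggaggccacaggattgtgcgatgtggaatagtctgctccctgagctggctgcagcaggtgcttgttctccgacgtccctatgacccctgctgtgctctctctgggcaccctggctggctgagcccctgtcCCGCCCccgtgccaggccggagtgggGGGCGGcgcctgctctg
Igf2: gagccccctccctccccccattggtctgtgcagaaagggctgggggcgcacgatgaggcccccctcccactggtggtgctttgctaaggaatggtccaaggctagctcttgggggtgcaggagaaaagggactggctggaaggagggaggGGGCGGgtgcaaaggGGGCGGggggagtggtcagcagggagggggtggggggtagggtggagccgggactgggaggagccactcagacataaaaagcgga
Every match in both windows was a GC box. In Kl the matches begin 17 and 43 bases before the start, the second on the opposite strand, and in Igf2 100 and 85 bases before it. The GC box occurred in 32.7% of the 32851 promoter windows of this length that were searched, the OTX core in 6.25%, the forkhead site in 3.17% and the TATA box in 12.4%. A second Igf2 window held 1 GC box and the other two held none of these letters. Of the 3 Prlr windows 1 held a forkhead site. Such matches describe the letters alone.

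Signals are linear intensities per probe set, scaled by array, and were analysed as log2(signal + 16). All 6 arrays had the same mean of 300.2 over the middle 96% of signals, and their median signals lay between 119.4 and 130.7. The brightest Ncam1 probe set read 270.8 ± 59.6 (SD, n = 3) in knockout and 1337 ± 116 in wild-type brains. Cerebellar genes were low on the array of knockout replicate 2, with Gabra6 at 11.8 against 1254 to 1388 on the other arrays, Zic1 at 825 against 1963 to 2390 and Calb1 at 794 against 1424 to 1613. Pituitary genes stood out in knockout replicate 1, with Gh at 11613 against 222.4 to 409.7. RNA quality, read as the Gapdh control's 3′ over 5′ signal, gave 0.811 to 0.826 for knockout arrays and 0.768 to 0.798 for wild-type arrays. The same ratio of the actin control overlapped, at 1.14 to 1.22 and 1.08 to 1.196. Without knockout replicate 1 the log2 differences of the members described below were -0.12 for Ttr, -0.13 for Igf2, -0.31 for Folr1 and 0.19 for Kl, and values without knockout replicate 2 stand beside each member.

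Folr1 had the clearest separation by genotype, Kl leaned higher in knockout brains, and Ttr and Igf2 were near their wild-type levels, but no member passed the test. In limma, with p values adjusted over the 7453 tested probe sets (those with a mean signal of about 72.2 or more), 0 of the 4 tested members were called. Over all probe sets 2 were called, or 0.0268%. At an unadjusted p under 0.05, 1 of the 4 members was lower in knockout brains and 0 were higher, where 3.68% of all tested probe sets were lower and 3.26% higher by that measure. One probe set each of Folr1 and Igf2 was too dim to be tested. Knockout minus wild type, the median log2 difference was -0.05 over all 6 member probe sets and 0.02 over all 12422.

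**Figure D1:**
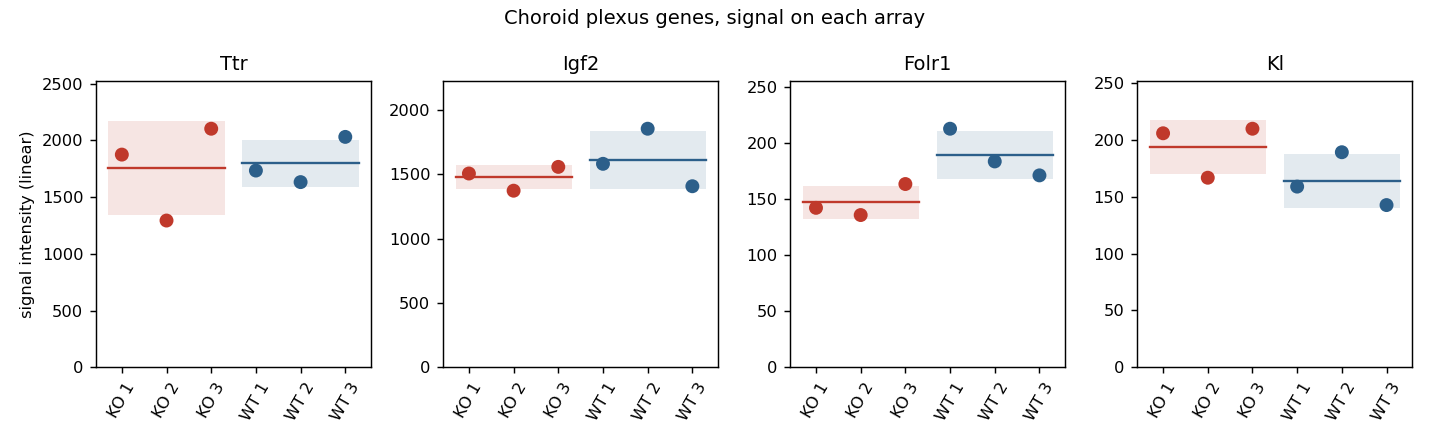
Signal intensity (linear scale from 0) of the tested probe set of Ttr, Igf2, Folr1 and Kl on each of the 6 arrays. Points are animals (red knockout, blue wild type, KO and WT with the replicate number), lines are group means and bands 1 SD (n = 3). For Folr1 all 3 knockout points lie below the wild-type points, and knockout replicate 2 is the lowest array for Ttr, Igf2 and Folr1.

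Ttr, the carrier of thyroxine and retinol in cerebrospinal fluid, read 1875, 1294 and 2103 in knockout replicates 1, 2 and 3 and 1734, 1633 and 2031 in wild-type replicates 1, 2 and 3. The highest and the lowest signal were both from knockout animals, so the groups overlapped throughout. The means were 1757 ± 418 (SD, n = 3) in knockout and 1799.5 ± 207 in wild-type brains. The log2 difference was -0.06 ± 0.16 (SE, 2-sided limma fit, adjusted p = 0.958). The 95% interval of the fold ran from 0.744 to 1.24. Its sign depended on single animals. Without knockout replicate 2 the log2 difference was 0.15, without wild-type replicate 3 it was 0.03, with array weights 0.02, and with knockout replicates 1 and 2 both left out 0.23. None of these passed.

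Igf2, an imprinted growth factor made in the adult brain by choroid plexus and meninges, read 1507, 1374 and 1559 in knockout replicates 1, 2 and 3. In wild-type replicates 1, 2 and 3 it read 1583, 1856 and 1408. Knockout replicate 2 was again the lowest array, and wild-type replicate 2 the highest. The knockout mean of 1480 ± 95.6 (SD, n = 3) was lower than the wild-type mean of 1616 ± 226 by less than the spread among wild-type animals (log2 difference -0.12 ± 0.10, adjusted p = 0.834 in limma, 95% interval of the fold 0.784 to 1.08). The other Igf2 probe set, which carries the same GenBank sequence in the annotation, read only 9.21 to 13.8 on knockout and 9.02 to 10.7 on wild-type arrays and was not tested. Its log2 difference was 0.09, of opposite sign. The Igf2 values given here therefore rest on the brighter probe set alone. Its specificity, and the cause of the large disagreement in level between the probe sets, were not tested. Without knockout replicate 2 the difference of the brighter probe set was -0.07, and with knockout replicate 3 alone it was -0.04. It was -0.01 without wild-type replicate 2 and -0.21 without wild-type replicate 3, the ends of its range.

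Folr1, the receptor that carries folate through the plexus epithelium, was lower in every knockout animal than in any wild-type animal. It read 142.0, 135.6 and 163.3 in knockout replicates 1, 2 and 3 and 212.6, 183.4 and 171.0 in wild-type replicates 1, 2 and 3. The gap between the groups was small, with knockout replicate 3 just under wild-type replicate 3. The means were 147.0 ± 14.5 (SD, n = 3) and 189.0 ± 21.3, so that the knockout mean was 77.8% of the wild-type mean. The log2 difference was -0.33 ± 0.13 (SE), with an unadjusted p of 0.0333 and an adjusted p of 0.719 in limma, and the 95% interval of the fold ran from 0.648 to 0.978 before adjustment. Exact permutation of the 6 animals (two-sided) gave 0.1, and no smaller p is possible with 3 per group. Groups without overlap, with the knockout lower, were found for 6.8% of all tested probe sets and for 1 of the 4 members. Over the alternatives the difference ranged from -0.40 to -0.19. It was -0.28 without knockout replicate 2, and smallest with knockout replicate 3 alone against the wild-type animals. The Gapdh 3′ to 5′ ratio also separated the groups, while that of actin did not, and their part in the Folr1 difference was not tested. A second, less specific Folr1 probe set read 23.9, 11.9 and 20.8 on knockout arrays against 25.2, 17.6 and 16.5 on wild-type arrays. That probe set was too dim to be tested, its groups overlapped, and its log2 difference was -0.05 (0.11 without knockout replicate 2).

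Kl, the klotho co-receptor, was the member with a higher mean in knockout brains. It read 206.0, 166.8 and 210.0 in knockout replicates 1, 2 and 3 and 159.0, 189.3 and 142.7 in wild-type replicates 1, 2 and 3. Knockout replicates 1 and 3 were the highest arrays, but wild-type replicate 2 exceeded knockout replicate 2, so the groups overlapped. The means of 194.2 ± 23.8 (SD, n = 3) and 163.7 ± 23.6 differed by 0.23 ± 0.14 on the log2 scale (adjusted p = 0.767 in limma, 95% interval of the fold 0.936 to 1.47). Over the alternatives the difference lay between 0.14 and 0.34, with 0.33 without knockout replicate 2 and 0.34 without knockout replicates 1 and 2. No member stood above all wild-type animals in all knockout animals, where 6.08% of tested probe sets did.

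Knockout replicate 2, the brain with low cerebellar signal, had the lowest signal of all 6 arrays for 3 of the 4 tested members (Ttr, Igf2 and Folr1), while it was lowest for 19.9% of all tested probe sets. Against the wild-type mean it lay at -0.47 for Ttr, -0.43 for Folr1, -0.22 for Igf2 and 0.03 for Kl on the log2 scale. The dim Folr1 probe set was lowest on this array too. After centring each array on its median, knockout replicate 2 stayed lowest for Ttr (-0.42) and the dim Folr1 probe set. The tested Folr1 probe set was then lowest in knockout replicate 1 (-0.40 against -0.38), and Igf2 in wild-type replicate 3 (-0.22 against -0.17). With quantile normalisation Ttr, Igf2 and Folr1 were all lowest in knockout replicate 2. The summed signal of the 4 members, most of it from Ttr and the brighter Igf2 probe set, was 2970 in this animal. It was 3689 to 4036 on the other 5 arrays. Cerebellar genes, by comparison, summed to 2316 in it and to 8464 to 9702 elsewhere (8 of 8 genes measured bright enough to be tested), and Gabra6, a defining gene of cerebellar granule cells, was nearly at 0. The 16 other tested choroid plexus genes had a median deviation of -0.07 in this animal, against -2.25 for the cerebellar genes. The sum of these 16 genes was also lowest in this animal, at 4164 against 4296 to 4626 elsewhere. Part of the plexus lies in the ventricle beneath the cerebellum. Whether the lower member signals and the low cerebellar signal share a cause was not tested.

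Knockout replicate 1, the brain with high pituitary hormone signal, was not at either extreme for any tested member. Of all tested probe sets 14.5% were lowest and 15.7% highest on this array. Its deviations from the wild-type mean were 0.07 for Ttr, -0.09 for Igf2, -0.37 for Folr1 and 0.31 for Kl. Prl, the ligand of the prolactin receptor, read 2141 in this animal and between 43.9 and 161.2 on the other arrays, and Lhb, a gonadotropin subunit, 486.2 against 335.1 to 392.8. Knockout replicate 3 had the highest Ttr and Kl signal of the 6 arrays, and 22% of all tested probe sets were highest on it. Its median deviation was 0.00 for the tested cerebellar genes. For the tested pituitary genes it was 0.46, against 2.64 in knockout replicate 1 and -0.22 to 0.17 on wild-type arrays.

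**Figure D2:**
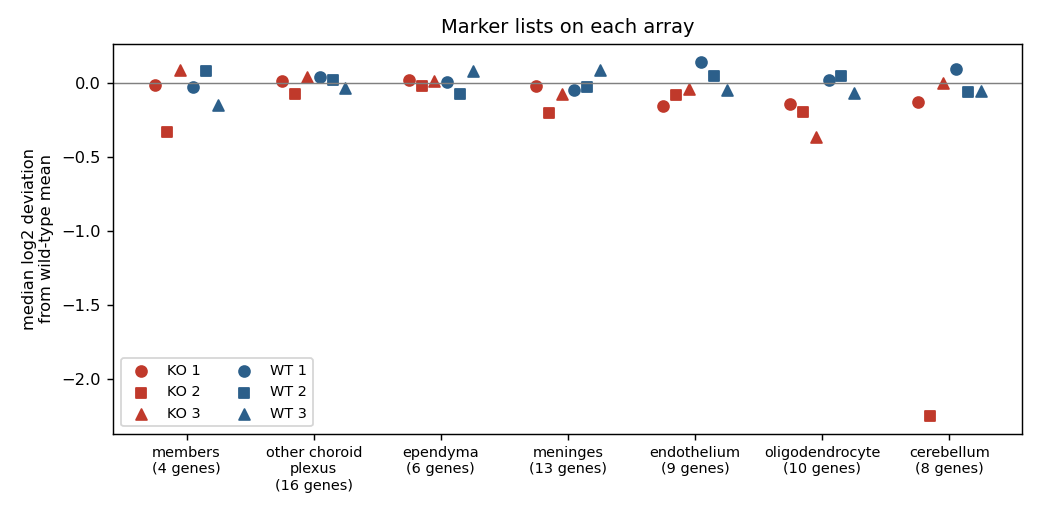
Median log2 deviation from the wild-type mean (vertical axis) of the tested genes of 7 marker lists (horizontal axis) on each array, red for knockout and blue for wild type, with circle, square and triangle for replicates 1, 2 and 3. Knockout replicate 2 (red square) lies at -2.25 for cerebellum and at -0.33 for the 4 choroid plexus members, and at -0.07 for the 16 other choroid plexus genes.

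Ttr was higher in the older animals. Both 3-month-old animals (2103 and 2031) exceeded all 4 animals aged 2 months (1294 to 1875), a separation found for 11.4% of all tested probe sets. In a limma fit of genotype and age the difference was 0.35 ± 0.13 on the log2 scale with an adjusted p of 0.358. At an unadjusted p under 0.05 Ttr was among the 6.31% of tested probe sets higher at 3 months, and 2 probe sets, or 0.0268%, passed after adjustment, of either direction. Without knockout replicate 2 the age difference of Ttr was 0.22 ± 0.06 (adjusted p = 0.293). Folr1, Igf2 and Kl had age differences of 0.01 ± 0.14, -0.08 ± 0.11 and -0.05 ± 0.15. The order of the 6 arrays by Ttr signal was also exactly their order by median signal, which 0.429% of tested probe sets shared. The medians spanned 0.12 on the log2 scale and Ttr 0.69. After centring each array on its median, Ttr still spanned 0.58, with knockout replicate 2 at -0.42 and the 3-month-old animals at 0.16 and 0.15, and the age difference was 0.29 ± 0.12 (adjusted p = 0.359). With 2 animals aged 3 months, 1 of each genotype, the parts of age and of array brightness in these values cannot be told apart.

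**Figure D3:**
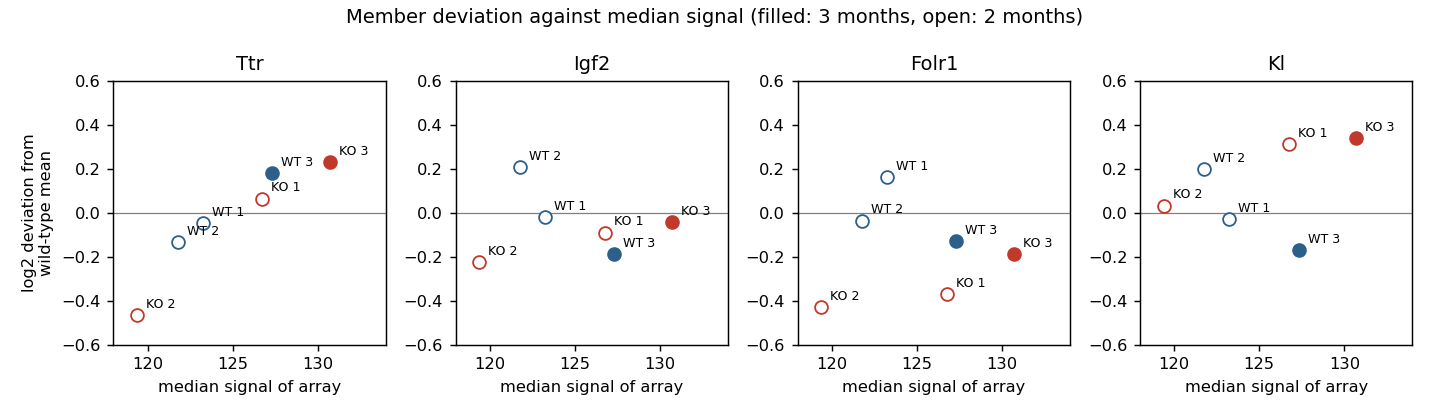
Log2 deviation from the wild-type mean (vertical axis) of Ttr, Igf2, Folr1 and Kl against the median signal of each array (horizontal axis, linear), red for knockout and blue for wild type, filled for 3 months and open for 2 months. Ttr rises with the median signal from knockout replicate 2 at -0.47 to knockout replicate 3 at 0.23, while the other members show no such order.

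Members did not share one pattern over the arrays. Pearson's r over the 6 arrays was 0.55 for Folr1 and Igf2, 0.42 for Igf2 and Kl, 0.29 for Folr1 and Ttr, 0.18 for Kl and Ttr, 0.09 for Igf2 and Ttr and -0.32 for Folr1 and Kl. These are descriptions over 6 arrays of 2 genotypes, with array brightness shared. The probe sets most like Ttr, among 4038 whose range over the arrays was at least 50% of that of Ttr, were those of Rbm14, Apln, Pml, Elane, Ptafr, Pcyt1a, Bnip2 and Foxo3, with r from 0.975 to 0.986. Those of Rbm14, Ptafr and Bnip2 are less specific. In all 107 of the 4038 had r over 0.9. None of these 8 is among the choroid plexus genes listed here. With knockout replicates 2 and 3 left out, the arrays farthest from the Ttr median, their r ranged from 0.858 to 0.993. They were chosen by their r over all 6 arrays, so this range is no separate check of the likeness.

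Other genes known from plexus epithelium were split in direction. Of 50 listed genes 32 were on the array and 16 were bright enough to be tested, of which 8 had higher and 8 lower means in knockout brains (median log2 difference 0.00, against 0.00 over all tested probe sets). In limma 0 were called, and 1 gene in each direction had an unadjusted p under 0.05. Slc12a2, the sodium, potassium and chloride cotransporter of the plexus, which many other brain cells also express, had knockout signals of 1100, 1261 and 1317 against wild-type signals of 1534, 1498 and 1403. The groups did not overlap, and the log2 difference was -0.27 ± 0.08 (limma, adjusted p = 0.585). Calml4, a calmodulin-like gene, was above every wild-type animal, with 172.9, 176.0 and 146.9 against 127.8, 130.8 and 133.0 (0.30 ± 0.12, adjusted p = 0.719). The homeobox gene Msx1 had -0.28 ± 0.14, the anion exchanger Slc4a2 -0.13 ± 0.09, the carbonic anhydrase Car14 -0.11 ± 0.10 and Cab39l 0.20 ± 0.12. Slc16a8, a lactate transporter named after its values were seen, read 21.0 in knockout replicate 2 and 66.1 to 156.8 on the other arrays. Of the 16 tested genes, Ace and Slc4a2 were also lowest on that array. Calml4, Slc15a2, Ezr and Cox8b, the last by a less specific probe set, were highest on it. Several defining plexus genes were dim in all samples and not tested, among them the claudin Cldn2 (14.4 to 18.9) and the serotonin receptor Htr2c (36.3 to 54.2). The check of the plexus label therefore rests on Ttr and a few further genes.

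**Figure D4:**
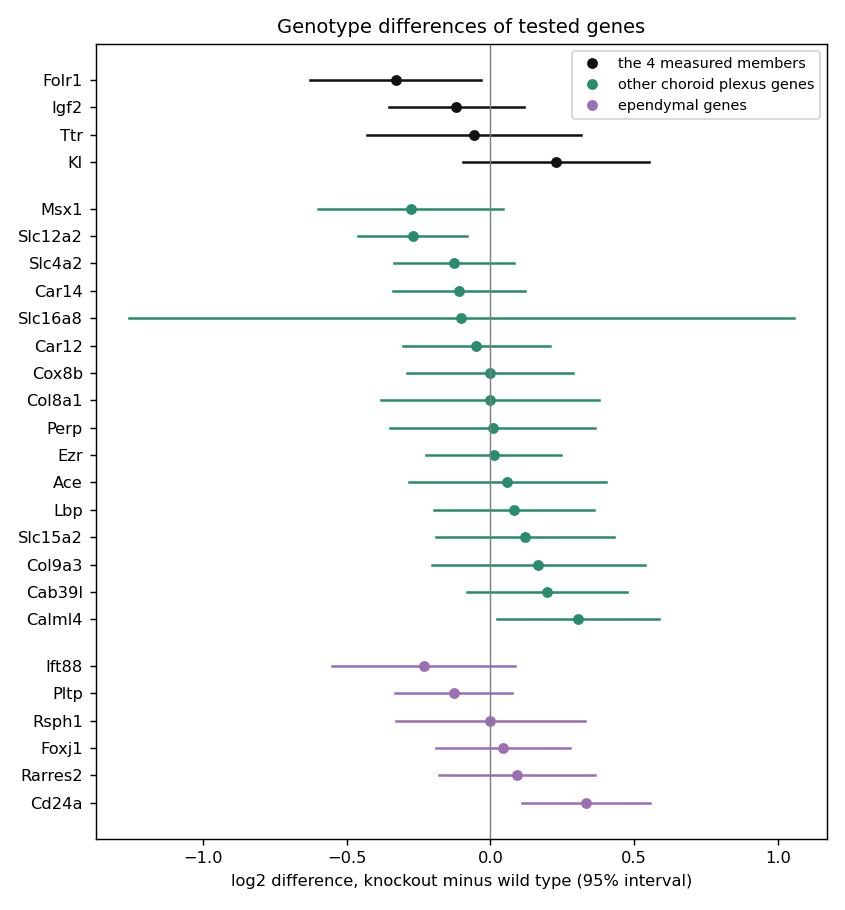
Knockout minus wild-type differences on the log2 scale (points, horizontal axis) with unadjusted 95% intervals (lines) for the 4 tested members (black), the 16 other tested choroid plexus genes (green) and 6 tested ependymal genes (purple). The intervals of Folr1, Slc12a2, Calml4 and Cd24a do not reach 0, and none of these genes passed after adjustment.

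Neighbouring cell types were measured beside the members, since several of them lie next to the plexus or share its genes. Ependymal cells, which line the ventricles with beating cilia, had 6 tested genes of 8 on the array, 4 higher and 2 lower, with 0 called and 1 higher at an unadjusted p under 0.05. Foxj1, the regulator of motile cilia, had a log2 difference of 0.04 ± 0.10. The ciliary genes Ift88 and Rsph1 had -0.23 ± 0.14 and 0.00 ± 0.15, Rsph1 by a less specific probe set. The lipid transfer protein Pltp had -0.13 ± 0.09, and the surface antigen Cd24a, also a neuronal gene, 0.33 ± 0.10 (adjusted p = 0.548 in limma). The ependymal sum was 3286 to 3893 on knockout and 3565 to 4146 on wild-type arrays, and knockout replicate 2 was the lowest array.

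Meningeal fibroblasts, the other source of Igf2, had 13 tested genes with 10 lower and 3 higher means and a median of -0.10. Ptgds, the prostaglandin D synthase of the meninges, plexus and oligodendrocytes, had -0.27 ± 0.11 by a less specific probe set. Col1a2 had 0.05 ± 0.10, also by a less specific probe set, and Igfbp2 -0.34 ± 0.08. The list had 0 called and 2 lower at an unadjusted p under 0.05, and its sum was 9057 to 10727 on knockout and 10507 to 12751 on wild-type arrays, again lowest in knockout replicate 2. Its part in the Igf2 values was not tested.

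Oligodendrocytes, which also express Enpp2, had 8 of 10 tested genes lower (median -0.22), 0 called and 5 lower at an unadjusted p under 0.05. Mbp and Mobp, both of myelin, had -0.08 ± 0.05 and -0.21 ± 0.07. The sum was 16620 to 17954 on knockout and 18709 to 19901 on wild-type arrays without overlap, and was not lowest in knockout replicate 2. Endothelial genes summed to 1809 to 2220 and 2039 to 2215, with Cldn5 at -0.06 ± 0.21 and Eng at 0.01 ± 0.12. Red blood cell genes summed to 5146 to 5678 and 4145 to 6823, with Hba-a1 at 0.10 ± 0.13 and Hbb-b2 at 0.03 ± 0.29. Both lists had 0 called and 0 at an unadjusted p under 0.05, and their sums overlapped between the groups.

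Partners of each member were measured next, in the order of the pathways. For Ttr, 6 genes of thyroid hormone and retinoid transport were tested, 3 higher and 3 lower, with 0 called and 1 lower gene with an unadjusted p under 0.05. The thyroid hormone receptor gene Thra had -0.16 ± 0.06 by its brighter probe set and 0.10 ± 0.15 by another. Rbp4, the retinol carrier that Ttr binds, had -0.07 ± 0.13. For Igf2, 7 genes were tested, with 4 higher and 3 lower, 0 called, and 1 gene past an unadjusted p of 0.05 in each direction. Igf1r, the receptor that signals for Igf2, was above every wild-type animal with 503.2, 582.9 and 537.8 against 428.0, 436.5 and 444.3 (0.30 ± 0.09, adjusted p = 0.548 in limma). Igfbp2, a binding protein made by plexus and meninges, was below every wild-type animal with 548.6, 550.3 and 554.1 against 643.7, 749.4 and 713.4 (-0.34 ± 0.08, adjusted p = 0.445). The same Igfbp2 probe set is counted in the meningeal list above. The related ligand Igf1 had -0.14 ± 0.10, and Igf2r, which clears Igf2, 0.11 ± 0.11.

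For Folr1, 4 folate genes were tested, with 3 lower and 1 higher, 0 called and 1 lower at an unadjusted p under 0.05. Folr2, the folate receptor of macrophages, was below every wild-type animal with 117.8, 93.0 and 55.2 against 134.03, 122.8 and 165.2 (-0.62 ± 0.23, adjusted p = 0.719 in limma). The reduced folate carrier gene Slc19a1 had 0.06 ± 0.14 by a less specific probe set. For Kl, Fgfr1, which binds FGF23 together with klotho, had -0.23 ± 0.11 by a less specific probe set. Fgfr2 had -0.03 ± 0.11, and 0 of the 2 were called or had an unadjusted p under 0.05.

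For the members without a named probe set, partners alone can be given. Lpar1, the main brain receptor of the lysophosphatidic acid made by Enpp2, had -0.18 ± 0.10, and the lipid phosphatase Plpp3 0.03 ± 0.10, with 0 of 3 tested genes called or at an unadjusted p under 0.05. In the list of prolactin and its signalling steps 0 of 8 tested genes were called, while 3 had an unadjusted p under 0.05 (2 higher, 1 lower). The kinase Jak2 had 0.10 ± 0.14, Stat5a, by a probe set of few probes, -0.30 ± 0.09 (adjusted p = 0.548 in limma), and Stat5b was too dim to be tested (24.7 to 88.1). Prl itself had 2.32 ± 0.87 (adjusted p = 0.719 in limma), a mean that rests mostly on knockout replicate 1. Knockout replicates 2 and 3, at 131.3 and 161.2, were also above every wild-type animal (43.9 to 108.7). Groups without overlap, with the knockout higher, were found for 6.08% of all tested probe sets. Among genes related to Clic6, Clic4 had knockout signals of 1014, 1658 and 1204 against wild-type signals of 1946, 1778 and 1648, with overlap at knockout replicate 2 (-0.49 ± 0.16, adjusted p = 0.606).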

How the data were processed

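Total RNA of 6 mouse brains was hybridised to 1-colour Affymetrix arrays, 1 per animal, per the labels. Per the labels and the values, the authors deposited 1 linear intensity for each probe set and array. The submitters' processing notes name GCOS 1.4, with the signal algorithm not given in the sources used here. Scaling to a common mean was read from the values. Setting aside 66 of 12488 entries as controls left 12422 probe sets, of which 10833 had 1 gene symbol in the platform annotation, 396 several and 1193 none. Symbols were checked by Entrez identifier against RefSeq (GRCm38.p6), which changed 0.

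Values were analysed as log2(signal + 16), which understates folds of dim genes. Probe sets with a mean at or above the 40th percentile were kept (7453) and fitted by genotype (limma 3.58.1 under R 4.3.3, moderated variances following signal, two-sided), with Benjamini-Hochberg adjustment over all of them and with a threshold of 0.05. Lists used the brightest probe set of each gene. Some genes are counted in more than 1 list, Igfbp2 with the meninges and the partners of Igf2, and Gh and Prl with the pituitary and prolactin lists. The labels describe separate individuals. On simulated data with 200 of 7453 probe sets changed, known log2 shifts were recovered in 42.5% (size 0.5), 83% (size 1) and 97.2% (size 2) of cases. The share of false calls was 5.64%. The simulation shuffled the spreads among probe sets, so these shares do not apply to the signal level of a given member. Figures were drawn with matplotlib 3.10.9.

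Members, lists and tests were chosen with earlier results of these data known. All probe sets of the 7 genes are named. Beside them stand, for the plexus and ependymal lists, the 4 brightest tested genes and the 3 of lowest p, for the other cell types the 2 brightest and some defining genes, for the partner lists the gene of lowest p and partners chosen by name, and the 8 probe sets most like Ttr. Slc16a8, Ace, Slc15a2, Ezr, Cox8b, Htr2c, Cldn2, Fgfr2, Foxj1, F5, Spint2 and Cldn3 were named after their values were seen. The age comparison and the values by array under other scalings were added after the data were seen.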

Additional observations from a re-analysis of the deposited data

How the results depend on the processing

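No member passed under any of the 17 alternatives (0 called in each). The filters, the trend, the block and the age term leave the differences as they are by construction. The dim Folr1 probe set ranged from -0.15 to 0.11. The difference of Ttr ranged from -0.20 to 0.23 and changed sign as given above. The lowest adjusted p of a member was 0.342, for Folr1 with array weights. At the 60th percentile filter Folr1 and Kl were too dim to be tested. Over all probe sets, 2 were called, against 1 with quantile normalisation, median centring, no filter or no intensity trend and 4 with array weights, and between 1 and 3 with single animals left out. The median over the 6 member probe sets was -0.05, ranged from -0.13 (without knockout replicate 1) to 0.10 (without knockout replicate 2) with single animals left out, was 0.01 with array weights, and was 0.13 without knockout replicates 1 and 2, a fit that gives the single knockout animal the spread of the wild type. Same-numbered animals were of the same age, but the labels name no shared litter or batch (correlations of their deviations 0.01, 0.15 and 0.20, and 2 of 3 knockout animals matched their own number best). With the replicate block the count of calls stayed at 2, and Folr1 had an adjusted p of 0.582. The cause of these shifts was not tested. Precision is limited by the number of arrays, and dim probe sets limit what can be said of several plexus genes.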

Other observations

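Among the choroid plexus genes too dim to be tested, 3 of 16 had knockout signals that all exceeded every wild-type signal, and 0 had the reverse. Of all 4969 untested probe sets 7.35% were higher in this way. The coagulation factor gene F5 had knockout signals of 39.3, 35.5 and 57.4 against wild-type signals of 10.2, 12.4 and 22.8. Spint2, a serine protease inhibitor of epithelia, read 16.5, 18.2 and 29.8 against 11.2, 4.95 and 6.97, and the claudin Cldn3 65.5, 68.6 and 95.01 against 44.3, 63.9 and 53.6. These genes were picked from the list after their values were seen, their signals lie below the limit of 72.2 or near it, and no test was made.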
